A study of Rattus norvegicus with 36 samples.

Results

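The change in gene expression after silica inhalation was compared between lung tissue and cells recovered by bronchoalveolar lavage (BALF cells) of the same animals. The labels gave 12 male rats of the strain Fisher (CDF) 344, described as approximately 3 months old. Crystalline silica at 15 mg/m3 had been inhaled by 6 of them for 6 h a day on 5 days, and the other 6 had inhaled air (0 mg/m3). The samples were taken 44 weeks after exposure, and no genetic change or further treatment was given for either group. Each rat number stood on 1 lung array and 1 BALF cell array, so that 24 of the 36 arrays of the series were used, from 6 silica rats and 6 air rats per tissue. Of 21792 probes on the Illumina rat BeadChip, 9131 probes of 9067 genes were detected (p under 0.05 against negative-control beads) on at least 6 of the 12 lung arrays and on at least 6 of the 12 BALF cell arrays. The comparison covered these 9131 probes, against 11399 tested in the lung and 9564 tested in BALF cells.

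Inhaled crystalline silica is taken up in the alveoli by alveolar macrophages, which cannot degrade it. Particle-laden macrophages release chemokines, cytokines and proteases, monocytes and neutrophils are recruited, and the lasting inflammation can end in silicosis, a fibrosis of the lung. Lavage recovers the free cells of the airspaces, in a healthy rat mainly alveolar macrophages, whereas lung tissue RNA comes from epithelium, vessels, fibroblasts and resident or recruited leukocytes together.

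On the lung arrays 11185 to 11513 probes were detected in silica rats and 10974 to 11607 in air rats, and on the BALF cell arrays 9537 to 9768 in silica rats and 9229 to 9773 in air rats. The surfactant genes Sftpc and Sftpb and the endothelial gene Cldn5 were detected on all lung arrays. In BALF cells the macrophage genes Cd68, Fabp4 and Mrc1 were detected on all arrays and the alveolar type 1 gene Ager and the endothelial gene Cdh5 on 0 arrays. Other genes of the lung structure were detected there: Cldn5 on all 12 arrays at 7.41 to 7.45, the epithelial gene Epcam on all 12 at 7.54 to 8.10, and Sftpc and Sftpb on 3 silica and 2 air arrays each. The probe of the alveolar macrophage receptor Marco was detected on 6 silica and 0 air arrays of BALF cells, at the detection limit. The haemoglobin gene Hbb ranged from 8.92 to 12.8 in silica BALF cells and from 10.6 to 14.3 in air BALF cells on the log2 intensity scale, and the club cell gene Scgb1a1 from 10.9 to 11.7 and from 11.6 to 12.7. Levels of marker gene lists are given below beside groups of genes, and their part in the results was not tested. In RNA of mixed cells, fewer cells of a type and less RNA per cell cannot be told apart.

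For each rat the BALF cell log2 intensity was subtracted from the lung log2 intensity, and these differences were compared between silica and air rats. The result is the lung log2 change (silica over air) minus the BALF cell log2 change. A value above 0 means that the lung changed upwards relative to BALF cells, whichever tissue carried the change. The test was limma's moderated test, two-sided, with Benjamini-Hochberg adjustment over the 9131 probes and a threshold of 0.05.

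The silica effect differed between the tissues for 2053 of 9131 probes (22.5%), of which 1116 lay above 0 (12.2%) and 937 below 0 (10.3%). A difference of at least 1.5-fold was reached by 201 probes above 0 and 132 below 0. The BALF cell change was the larger in size for 1377 of the 2053 probes and the lung change for 676. Of the 9131 probes, 831 were higher (9.10%) and 647 lower (7.09%) in silica lungs, against 1402 higher (15.4%) and 1681 lower (18.4%) in silica BALF cells. Calls in either direction made up 16.2% of the probes in the lung and 33.8% in BALF cells. Counts of list members given below are to be read against these shares over all 9131 probes. The SD of the log2 changes over the probes was 0.17 in the lung and 0.25 in BALF cells. The differences of the 6 silica rats lay entirely outside those of the 6 air rats for 1106 probes (12.1%).

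The 2053 probes fell into classes by the call in each tissue. A change was called in BALF cells alone for 1083, of which 644 lay above 0 (lower in silica BALF cells) and 439 below 0 (higher in silica BALF cells). A change was called in the lung alone for 395, of which 194 were higher and 201 lower in silica lungs. A missing call does not show that a tissue was unchanged. Both tissues had changed in the same direction by unequal amounts for 204, in opposite directions for 215 (2.35%), and 156 had passed in neither tissue by itself. A further 346 probes were called in the same direction in both tissues without a called difference. With arrays shifted to a common median in place of quantile normalization, only 46 differences above 0 and 88 below 0 were called, so that 34.3% of the calls lay above 0, against 54.4% with quantile normalization. All but 1 of these calls, 133, were among the 2053. Of the 121 genes with a called difference that the naming rule selected, 81 lost the call under that shift and 0 changed direction. Of the 30 with the largest differences, 27 kept it and Ubd, Cxcl1 and Zdhhc2 lost it. The other 13 that kept it were Cd74, Nr1d1, Ccrl2, Gstp1, Cxcr4, Ly6c, Cd14, Ccr7, Batf3, Krt19, Ctsl, Scd and Slc40a1. The differences of the rest of the 121 genes did not pass under the shift.

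**Figure D1:**
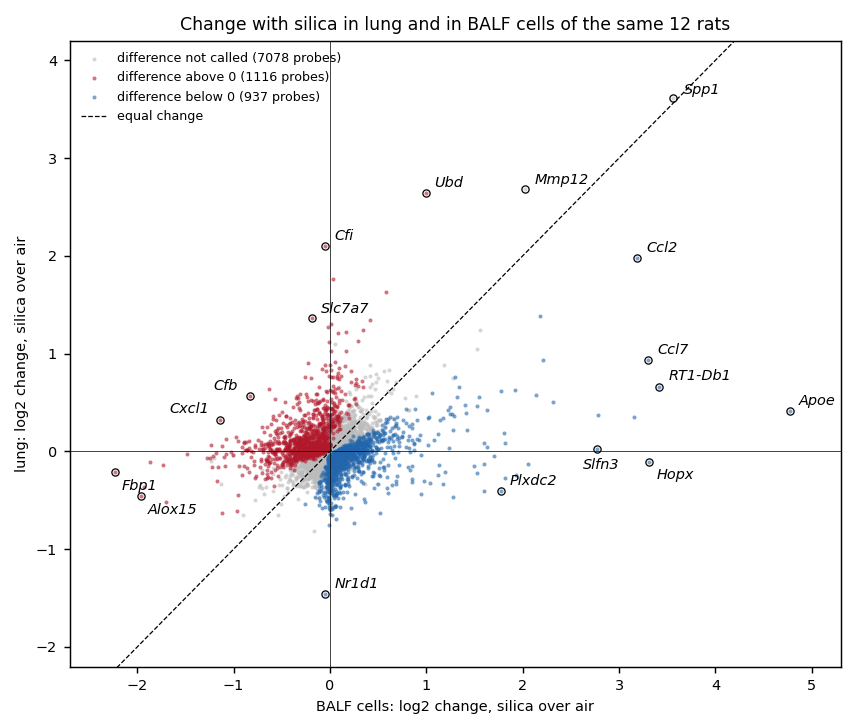
Each point is 1 of 9131 probes, with the log2 change (silica over air, 6 rats per group) in BALF cells on the horizontal axis and in the lung on the vertical axis; the dashed line marks equal change. Apoe and Hopx lie far to the right with lung changes of 0.42 and -0.11, Cfi lies high with a BALF cell change of -0.05, and Spp1 lies on the line of equal change (3.62 in the lung and 3.56 in BALF cells).

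The largest difference below 0 was that of Apoe, the apolipoprotein that carries lipid out of macrophages. In the lung its log2 intensity was 12.87, 13.08 and 13.84 (lowest, median and highest) in silica rats and 12.62, 12.80 and 13.10 in air rats. In BALF cells it was 11.43, 12.39 and 13.24 in silica rats and 7.43, 7.54 and 8.20 in air rats. The BALF cell groups were far apart, while the lung groups overlapped. Apoe was 27.3-fold higher in silica BALF cells (log2 change 4.77 ± 0.29, SE, n = 6 rats per group), against a lung change of 0.42 ± 0.16 that did not pass, and the difference was -4.35 ± 0.41 (adjusted p = 3.35e-05).

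Hopx, a small homeodomain protein that marks alveolar type 1 cells in the lung, had the next largest difference. Its lung levels were 14.73, 14.77 and 14.79 in silica rats and 14.69, 14.90 and 14.96 in air rats. Its BALF cell levels were 10.89, 11.31 and 11.45 in silica rats and 7.76, 7.88 and 8.08 in air rats. The gene stood near the top of the lung scale in both groups and separated the groups in BALF cells alone. The BALF cell change was 3.31 ± 0.11 and the difference -3.42 ± 0.11 (adjusted p = 3.53e-08), the smallest adjusted p of the genes named here. Among other type 1 genes, Aqp5, a water channel, fell in the lung by 0.42 ± 0.09 and stayed near the detection limit in BALF cells (7.41 to 7.46 in silica rats and 7.44 to 7.56 in air rats). Pdpn, podoplanin, was detected on 6 silica and 0 air BALF cell arrays and was at least 1.07-fold higher in silica BALF cells. Without background correction the Aqp5 difference of -0.37 was -0.12 and did not pass (adjusted p = 0.615). Of 4 type 1 genes tested in both tissues, 3 had a difference below 0 and 0 above it. The mean level of the type 1 marker list, which includes Hopx, was 10.7 to 10.9 in silica lungs and 11.0 to 11.2 in air lungs. In BALF cells it was 7.80 to 7.84 in silica rats and 7.55 to 7.61 in air rats. Of its 12 markers with a probe, 7 were detected on 0 BALF cell arrays.

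MHC class II molecules present peptides to CD4 T cells, and their invariant chain, encoded by Cd74, guards the peptide groove until the molecules reach the endosome. 4 class II genes rose in both tissues, with the larger change in BALF cells. RT1-Da, a class II alpha chain, had lung levels of 14.71, 14.88 and 15.06 in silica rats and 14.44, 14.52 and 14.65 in air rats. In BALF cells its levels were 13.05, 13.14 and 14.30 in silica rats and 9.82, 10.25 and 10.51 in air rats. The groups did not overlap in either tissue. The lung change was 0.35 ± 0.06, the BALF cell change 3.16 ± 0.21 and the difference -2.81 ± 0.17 (adjusted p = 2.2e-06).

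The class II beta chain RT1-Db1 had lung levels of 12.48, 12.68 and 13.12 in silica rats and 12.02, 12.04 and 12.17 in air rats. In BALF cells it had 11.06, 11.30 and 13.18 in silica rats and 8.01, 8.17 and 8.30 in air rats. In both tissues the silica rats lay above the air rats, and in BALF cells 1 silica rat, replicate 6, lay well above the other 5. The changes were 0.65 ± 0.09 in the lung and 3.42 ± 0.31 in BALF cells, a difference of -2.76 ± 0.24 (adjusted p = 1.78e-05). Cd74 rose by 0.58 ± 0.12 in the lung and 2.13 ± 0.24 in BALF cells (difference -1.55 ± 0.17), and the alpha chain RT1-Ba by 0.63 ± 0.13 and 1.92 ± 0.27 (difference -1.29 ± 0.21). Silica replicate 6 was the highest of the silica BALF cell samples for all 4 genes. Without it the differences were -2.65 for RT1-Da, -2.52 for RT1-Db1, -1.41 for Cd74 and -1.09 for RT1-Ba, with adjusted p of 0.000144 or less.

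Of 15 genes listed for class II presentation, 12 had a probe and 7 were tested in both tissues. Of these 7, 4 had a difference below 0, 2 above 0, and the median difference was -1.29, against 0.002 over all 9131 probes. The median change of the 7 was 0.63 in the lung and 1.92 in BALF cells. The mean level of the monocyte and recruited macrophage markers was 9.61 to 9.84 in silica BALF cells and 8.86 to 8.99 in air BALF cells, and that of the dendritic cell markers 8.21 to 8.33 and 8.22 to 8.27. The 2 above 0, named here after their values were seen, were not class II chains but the endosomal protease Ctss (0.69) and the thiol reductase Ifi30 (0.43).

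The promoters of the 4 genes that carry the class II difference are shown because class II genes are known to share promoter boxes, an X box bound by the RFX complex and a Y box bound by NF-Y. The sequences are RefSeq's for assembly GRCr8, 250 bases before to 50 bases after the gene start, from a reference strain other than the one studied. Capitals mark matches on either strand to CCAAT, which reads as ATTGG on the other strand, the core of a Y box, and to AACNGATG, the end of an X box. The windows are chr20:4515165-4515464 on the + strand for RT1-Da, chr20:4560113-4560412 on the - strand for RT1-Db1, chr20:4576807-4577106 on the + strand for RT1-Ba and chr18:56526956-56527255 on the + strand for Cd74.
RT1-Da: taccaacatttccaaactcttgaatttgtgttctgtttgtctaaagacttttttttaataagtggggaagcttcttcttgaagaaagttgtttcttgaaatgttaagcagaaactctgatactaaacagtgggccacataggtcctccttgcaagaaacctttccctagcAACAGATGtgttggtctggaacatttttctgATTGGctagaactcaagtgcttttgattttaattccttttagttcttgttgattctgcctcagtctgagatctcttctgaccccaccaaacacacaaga
RT1-Db1: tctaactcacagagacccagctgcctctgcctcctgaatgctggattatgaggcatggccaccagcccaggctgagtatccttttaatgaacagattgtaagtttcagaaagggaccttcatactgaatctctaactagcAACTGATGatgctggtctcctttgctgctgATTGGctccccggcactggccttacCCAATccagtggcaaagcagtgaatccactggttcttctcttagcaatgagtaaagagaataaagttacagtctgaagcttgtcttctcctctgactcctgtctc
RT1-Ba: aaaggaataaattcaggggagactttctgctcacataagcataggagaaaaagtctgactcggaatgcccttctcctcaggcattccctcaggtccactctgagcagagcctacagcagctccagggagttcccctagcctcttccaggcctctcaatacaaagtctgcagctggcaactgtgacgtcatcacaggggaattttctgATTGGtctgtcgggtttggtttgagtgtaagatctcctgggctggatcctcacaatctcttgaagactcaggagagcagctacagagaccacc
Cd74: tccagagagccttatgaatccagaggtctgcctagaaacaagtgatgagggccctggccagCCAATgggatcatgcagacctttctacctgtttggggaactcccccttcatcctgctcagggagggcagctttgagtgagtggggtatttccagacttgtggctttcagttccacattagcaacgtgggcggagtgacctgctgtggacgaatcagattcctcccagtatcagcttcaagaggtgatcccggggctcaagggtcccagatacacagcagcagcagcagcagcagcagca

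CCAAT was found in 6 of the 7 promoters of the tested class II list and in 37.5% of all 33469 promoters of the table. AACNGATG was found in 3 of the 7, namely RT1-Da, RT1-Db1 and Ctss, and in 2.58% of all. Ctss, whose difference lay above 0, held it from -213 to -206, and CCAAT from base 17 to 21 after its start. RT1-Da held AACNGATG from base -80 to -73 before its start and the ATTGG form of CCAAT from -49 to -45. RT1-Db1 held AACNGATG from -110 to -103, ATTGG from -80 to -76 and CCAAT from -55 to -51. RT1-Ba held ATTGG from -43 to -39, and Cd74 held CCAAT from -189 to -185. The 2 motifs do not overlap in these windows, and the matches describe the letters alone.

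Chemokines of the CC family recruit monocytes and lymphocytes. Ccl7, a monocyte chemoattractant, had lung levels of 8.19, 8.49 and 8.75 in silica rats and 7.49, 7.52 and 7.54 in air rats. Its BALF cell levels were 9.64, 10.97 and 11.49 in silica rats and 7.47, 7.56 and 7.65 in air rats. The air rats lay at the detection limit in both tissues and the silica rats above them in both. The changes were 0.94 ± 0.09 in the lung and 3.30 ± 0.26 in BALF cells, with a difference of -2.37 ± 0.29 (adjusted p = 0.000185). Ccl2, the main monocyte chemoattractant, had the same order, with 1.98 ± 0.13 in the lung, 3.19 ± 0.24 in BALF cells and a difference of -1.20 ± 0.27 (adjusted p = 0.00786). Without background correction this difference was -0.56 and did not pass (adjusted p = 0.0912).

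Ccl5, a T cell chemoattractant, and the chemokine-binding receptor Ccrl2 rose in BALF cells and did not rise in the lung. Ccl5 had lung levels of 13.13, 13.34 and 13.50 in silica rats and 13.10, 13.49 and 13.86 in air rats, which overlapped. In BALF cells it had 8.11, 8.64 and 10.80 in silica rats and 7.40, 7.44 and 7.47 in air rats, with replicate 6 again the highest. The difference was -1.65 ± 0.37 (adjusted p = 0.00753), and -1.29 without replicate 6. Ccrl2 rose by 1.60 ± 0.10 in BALF cells and fell by 0.12 ± 0.04 in the lung. Ccl17, a dendritic cell and macrophage chemokine, rose by 0.19 ± 0.03 in the lung and 0.56 ± 0.06 in BALF cells, a difference of -0.37 ± 0.06. Of 14 CC chemokines and receptors tested in both tissues, 6 had a difference below 0 and 2 above it, with a median of -0.03.

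In the CXC family, Cxcl1, a neutrophil chemoattractant, had lung levels of 11.40, 11.78 and 12.37 in silica rats and 11.06, 11.43 and 12.12 in air rats, and BALF cell levels of 8.03, 8.12 and 8.43 in silica rats and 9.10, 9.29 and 9.65 in air rats. The lung groups overlapped, and all silica rats lay below all air rats in BALF cells. The BALF cell change was -1.14 ± 0.09 and the difference 1.46 ± 0.23 (adjusted p = 0.000881). Cxcl9, an interferon-induced T cell chemokine, rose by 1.22 ± 0.25 in the lung with a BALF cell change of 0.08 ± 0.08 (difference 1.14 ± 0.19), and the membrane-bound chemokine Cx3cl1 by 0.63 ± 0.14 with 0.00 ± 0.05 (difference 0.63 ± 0.11). The receptor Cxcr4 fell by 0.31 ± 0.07 in the lung and rose by 0.85 ± 0.11 in BALF cells. Of 10 CXC genes tested in both, 3 had a difference above 0 and 2 below it. The median of the list was 0.28.

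Interferon-response genes restrict viruses and tune antigen presentation. Slfn3, of the schlafen family, had BALF cell levels of 10.42, 10.64 and 10.81 in silica rats and 7.68, 7.75 and 8.42 in air rats. Its lung levels were 11.46, 11.84 and 12.07 in silica rats and 11.25, 11.86 and 12.31 in air rats. Only the BALF cell groups were apart, with a change of 2.77 ± 0.13 and a difference of -2.74 ± 0.25 (adjusted p = 3.15e-05). The antiviral genes Oasl and Ifit1 had differences of -1.003 ± 0.16 and -0.86 ± 0.22, and Irf7, a transcription factor of type I interferon induction, -0.81 ± 0.13. The lung changes of these 3 genes were -0.15, 0.01 and 0.07, and none of them passed. Of 20 interferon-response genes tested in both tissues, 9 rose in BALF cells and 1 in the lung, 8 had a difference below 0 and 1 above it, and the median difference was -0.06. The interferon-inducible surface protein Ly6e had a BALF cell change of 2.06 ± 0.14 and a difference of -2.18 ± 0.14.

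Interleukin-1 and NF-kB drive acute inflammation. Il1r2, the decoy receptor that binds interleukin-1 without signalling, had BALF cell levels of 10.00, 10.21 and 10.66 in silica rats and 7.44, 7.47 and 7.76 in air rats, and lung levels of 8.19, 8.51 and 8.79 in silica rats and 7.84, 8.04 and 8.78 in air rats. The BALF cell groups were apart and the lung groups overlapped (difference -2.41 ± 0.17, adjusted p = 5.27e-06). Il1b, the cytokine itself, had a BALF cell change of 1.13 ± 0.17, a lung change of -0.24 ± 0.24 and a difference of -1.37 ± 0.37. Nfkbia, the NF-kB inhibitor that NF-kB induces, had 0.83 ± 0.06, -0.01 ± 0.06 and -0.84 ± 0.06 for the same quantities. Il18, an inflammasome cytokine, went the other way, with a rise of 0.76 ± 0.12 in the lung and a difference of 1.02 ± 0.19. Of 18 inflammasome and NF-kB genes tested in both tissues, 8 had a difference below 0 and 2 above it, and the median was -0.13.

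The next genes come from the lists of monocyte and recruited macrophage markers and of neutrophil markers, whose counts in both directions follow. The matrix protein fibronectin, Fn1, had BALF cell levels of 12.66, 12.75 and 13.03 in silica rats and 10.34, 10.75 and 11.53 in air rats, and lung levels of 12.86, 12.97 and 13.12 in silica rats and 12.99, 13.19 and 13.45 in air rats. The BALF cell change was 1.93 ± 0.18, the lung change -0.24 ± 0.08, which did not pass, and the difference -2.17 ± 0.21 (adjusted p = 3.35e-05). Cd14, the lipopolysaccharide co-receptor of monocytes, rose by 0.61 ± 0.11 in the lung and 1.77 ± 0.15 in BALF cells, and Ly6c, a monocyte surface protein in mice, by 0.42 ± 0.07 and 1.63 ± 0.10. The alarmin S100a8 rose by 1.41 ± 0.18 in BALF cells with a lung change of 0.40 ± 0.27, and the secreted protease inhibitor Slpi by 2.21 ± 0.10 with 0.93 ± 0.36. For both, the differences of silica and air rats overlapped (-1.02 ± 0.30, adjusted p = 0.0289, and -1.27 ± 0.36, adjusted p = 0.0244), and the calls were lost in 4 and 3 of 12 fits with 1 rat left out. Cd177, a neutrophil surface protein, rose in the lung by 1.28 ± 0.19 and lay at the detection limit in BALF cells, with 7.39 to 7.40 in silica rats and 7.39 to 7.44 in air rats.

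Of 19 monocyte and recruited macrophage genes tested in both tissues, 11 rose in the lung and 15 in BALF cells, and 7 had a difference below 0 and 5 above it. The mean level of this marker list was 9.75 to 10.1 in silica lungs and 9.36 to 9.55 in air lungs, and 9.61 to 9.84 in silica BALF cells and 8.86 to 8.99 in air BALF cells. Of 12 neutrophil genes, 5 had a difference below 0 and 2 above it, and the mean level of that list was 8.16 to 8.25 in silica BALF cells and 7.85 to 7.94 in air BALF cells. The groups did not overlap for these lists in BALF cells. Of the 20 neutrophil markers with a probe, 7 were detected on 0 BALF cell arrays. The monocyte list includes Apoe, Spp1, Fn1, Cd14 and Ly6c, and the neutrophil list Il1r2, Slpi and S100a8. The list means partly restate these genes.

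**Figure D2:**
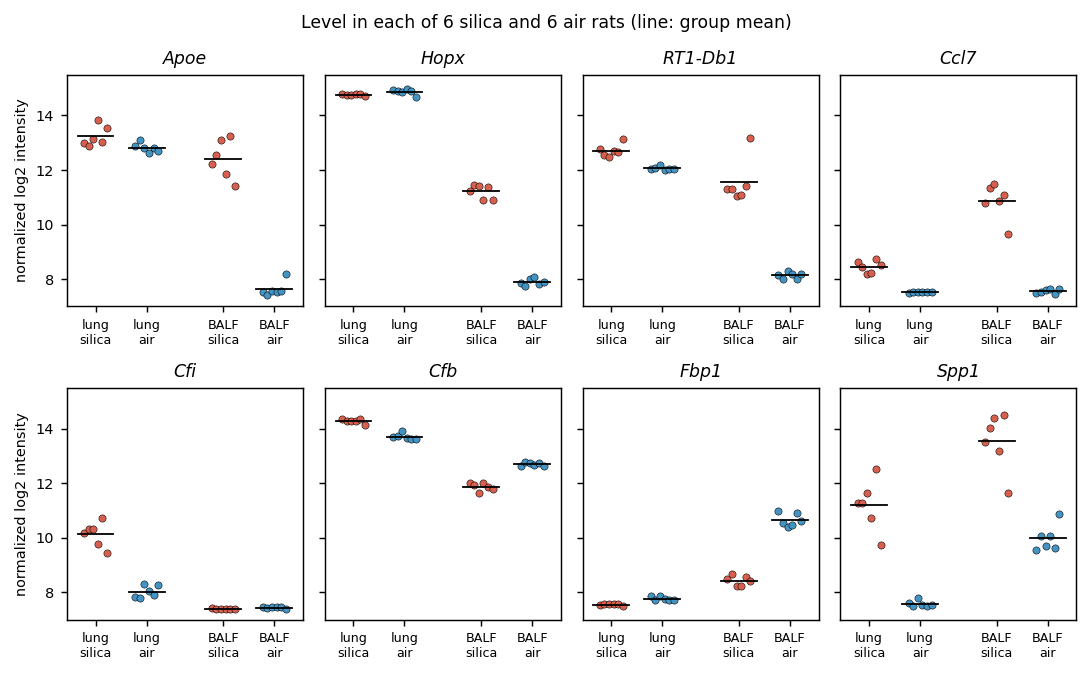
Normalized log2 intensity of 8 genes in each of 6 silica and 6 air rats, for lung and BALF cells (points are rats, lines are group means; the tissues were normalized separately). Apoe, Hopx, RT1-Db1 and Ccl7 separate the groups most in BALF cells, Cfi in the lung, Cfb in opposite directions, Fbp1 downwards mainly in BALF cells, and Spp1 upwards in both.

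The largest differences above 0 came partly from genes that fell in BALF cells. Fbp1, the gluconeogenic enzyme fructose-1,6-bisphosphatase, had BALF cell levels of 8.22, 8.45 and 8.67 in silica rats and 10.41, 10.58 and 11.00 in air rats. Its lung levels were 7.51, 7.56 and 7.58 in silica rats and 7.71, 7.74 and 7.86 in air rats. The silica rats lay below the air rats in both tissues. The lung value stood close to the detection limit, where a fall is compressed. The changes were -0.21 ± 0.03 in the lung and -2.23 ± 0.12 in BALF cells, and the difference was 2.02 ± 0.11 (adjusted p = 1.07e-06).

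Alox15, a lipoxygenase that makes lipid mediators in resident macrophages, had BALF cell levels of 8.34, 9.11 and 9.44 in silica rats and 10.58, 11.05 and 11.26 in air rats. It fell by 1.97 ± 0.17 in BALF cells and by 0.45 ± 0.14 in the lung, a difference of 1.51 ± 0.18. Ly49s4, annotated as a stimulatory receptor of the Ly49 family, had BALF cell levels of 7.53, 7.70 and 7.81 in silica rats and 9.13, 9.56 and 9.80 in air rats (difference 1.76 ± 0.09). Its lung means, 7.48 in silica and 7.59 in air rats (change -0.11 ± 0.02), lay close to the detection limit, where a fall is compressed. The ferroxidase hephaestin, Heph, fell by 1.93 ± 0.12 in BALF cells and by 0.36 ± 0.09 in the lung (difference 1.57 ± 0.11). Gipc2, a PDZ domain protein, fell by 1.73 ± 0.12 in BALF cells, with a lung change of -0.14 ± 0.06 (difference 1.59 ± 0.12). The palmitoyltransferase Zdhhc2 fell by 0.52 ± 0.09 in the lung and by 1.70 ± 0.08 in BALF cells, and the secreted protein Ccdc80 by 1.28 ± 0.10 in BALF cells with -0.07 ± 0.12 in the lung. Vopp1 and Tmem176b had differences of 1.21 ± 0.08 and 1.30 ± 0.13 with the same pattern. In BALF cells all silica rats lay below all air rats for each of these genes.

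Of 19 genes that mark alveolar macrophages and were tested in both tissues, 10 fell and 2 rose in BALF cells, whereas 7 rose and 4 fell in the lung. The difference lay above 0 for 12 and below 0 for 1, with a median of 0.34. Mrc1, the mannose receptor, had lung levels of 10.42, 10.47 and 10.63 in silica rats and 9.66, 10.00 and 10.41 in air rats. In BALF cells it had 12.31, 12.58 and 12.78 in silica rats and 12.93, 13.06 and 13.12 in air rats. The groups were apart in both tissues, in opposite directions (lung 0.51 ± 0.13, BALF cells -0.47 ± 0.07, difference 0.97 ± 0.16). Pparg, the nuclear receptor that sets alveolar macrophage identity, fell by 0.54 ± 0.10 in BALF cells with 0.11 ± 0.05 in the lung. Fabp4, a fatty acid binding protein that Pparg induces, rose in both, by 1.63 ± 0.21 in the lung and 0.58 ± 0.17 in BALF cells. The mean level of the marker list, which includes Fbp1 and Alox15, was 9.22 to 9.35 in silica lungs and 9.10 to 9.19 in air lungs. In BALF cells it was 10.0 to 10.1 in silica rats and 10.3 to 10.4 in air rats, with no overlap in either tissue.

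Lipid genes were split. Of 23 genes of lipid uptake, storage and efflux tested in both tissues, 12 had a difference above 0 and 3, with Apoe, below it. The scavenger receptor Olr1 rose by 0.20 ± 0.03 in the lung and fell by 0.50 ± 0.10 in BALF cells. Among 18 genes of sterol and fatty acid synthesis, 6 had a difference above 0 and 2 below it. The 2 below 0 belonged to fatty acid synthesis: Scd, the stearoyl-CoA desaturase, with a BALF cell change of 1.81 ± 0.16 and a difference of -1.62 ± 0.16, and its regulator Srebf1, with 0.85 ± 0.12 and -0.61 ± 0.07. The second of 2 tested Scd probes had a difference of -0.38 that did not pass. Idi1, an enzyme of sterol synthesis, had a difference of 0.38 ± 0.09. Of 13 genes of fatty acid oxidation and gluconeogenesis, 6 fell in BALF cells and 1 fell in the lung, and 4 had a difference above 0 and 0 below it. Among them were Fbp1 and the mitochondrial enzymes Hadhb (0.30 ± 0.07) and Acadm (0.21 ± 0.06). Under the median shift these last values were 0.15 (adjusted p = 0.806) and 0.067 (adjusted p = 0.934), and the Acadm call was also lost in 8 of 12 fits with 1 rat left out.

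The complement list held the largest difference above 0 of all named genes. Cfi, complement factor I, the protease that inactivates C3b and C4b, had lung levels of 9.44, 10.24 and 10.74 in silica rats and 7.79, 7.99 and 8.31 in air rats. Its BALF cell levels were 7.37, 7.39 and 7.41 in silica rats and 7.40, 7.45 and 7.47 in air rats. The lung groups were apart by more than 1 unit, and in BALF cells the probe lay at the detection limit, detected on 3 silica and 6 air arrays. Cfi was 4.29-fold higher in silica lungs (2.10 ± 0.20), the BALF cell change was -0.05 ± 0.01, and the difference was 2.15 ± 0.19 (adjusted p = 2.6e-05).

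Cfb, factor B, the protease of the alternative pathway, was well above the detection limit in both tissues. Its lung levels were 14.13, 14.29 and 14.35 in silica rats and 13.61, 13.69 and 13.91 in air rats, and its BALF cell levels were 11.63, 11.90 and 12.02 in silica rats and 12.65, 12.71 and 12.77 in air rats. The groups were apart in both tissues and in opposite directions. It rose by 0.57 ± 0.05 in the lung and fell by 0.83 ± 0.06 in BALF cells, a difference of 1.40 ± 0.07 (adjusted p = 2.18e-07). C4b, the classical component, rose by 0.89 ± 0.12 in the lung and lay near the detection limit in BALF cells (7.45 to 7.49 in silica rats and 7.48 to 7.55 in air rats). C2, the classical pathway protease, rose by 0.88 ± 0.09 in the lung, and in BALF cells, with levels of 14.63 to 14.75 in silica rats and 14.64 to 14.74 in air rats, its change was 0.00 ± 0.02. Of 16 complement genes tested in both tissues, 8 rose and 0 fell in the lung, 5 rose and 7 fell in BALF cells, and 8 had a difference above 0 and 1 below it. The median difference of the 16 was 0.48.

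Lysosomal genes encode the enzymes that degrade ingested material. Of 28 tested in both tissues, 19 rose and 0 fell in the lung, 9 rose and 6 fell in BALF cells, and the difference was above 0 for 18 and below 0 for 3, with a median of 0.28. Ctsk, cathepsin K, an elastase and collagenase, rose by 1.34 ± 0.23 in the lung and 0.41 ± 0.12 in BALF cells (difference 0.93 ± 0.22). The aminopeptidase Ctsh rose by 0.76 ± 0.08 in the lung and fell by 0.20 ± 0.05 in BALF cells (difference 0.96 ± 0.11). Ctse had a lung change of 0.55 ± 0.22, which did not pass, and a BALF cell fall of 0.35 ± 0.06 (difference 0.90 ± 0.19). Ctsl, cathepsin L, was the exception in size, with BALF cell levels of 11.32, 11.87 and 12.35 in silica rats and 10.48, 10.68 and 10.93 in air rats, a change of 1.19 ± 0.16, and a difference of -1.41 ± 0.15 (adjusted p = 7.39e-05). By the levels given above, the alveolar macrophage list was lower and the monocyte list higher in silica BALF cells, and both were higher in silica lungs. Their part in the lysosomal, complement and chemokine changes was not tested.

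The phagocyte NADPH oxidase makes superoxide. Its membrane subunit Cybb rose by 0.36 ± 0.11 in the lung and fell by 0.59 ± 0.08 in BALF cells (difference 0.95 ± 0.09, adjusted p = 4.6e-05). The BALF cell levels were 11.89, 12.30 and 12.47 in silica rats and 12.78, 12.84 and 12.94 in air rats, which did not overlap, whereas the lung groups did. The partner subunit Cyba rose by 0.50 ± 0.05 in the lung with 0.04 ± 0.03 in BALF cells, and the cytosolic subunit Ncf1 by 1.13 ± 0.11 and 0.29 ± 0.07. The GTPase Rac2 had a difference of 0.28 ± 0.09 (adjusted p = 0.0448), a call that was lost in 8 of 12 fits with 1 rat left out (adjusted p up to 0.0884). Of 7 oxidase and nitric oxide genes tested in both, 4 had a difference above 0 and 0 below it, with a median of 0.28.

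Antioxidant and haem genes had no common side, with 6 of 24 above 0, 7 below 0 and a median difference of 0.002. The haem oxygenase Hmox1 rose by 1.25 ± 0.10 in the lung and 0.34 ± 0.06 in BALF cells (difference 0.90 ± 0.11), and the mitochondrial superoxide dismutase Sod2 by 0.87 ± 0.07 and 0.16 ± 0.05 (difference 0.71 ± 0.08). Haptoglobin, Hp, rose by 1.03 ± 0.13 in the lung and lay at the detection limit in BALF cells. The iron exporter ferroportin, Slc40a1, was detected on 6 silica and 0 air BALF cell arrays, so it met the detection filter there through silica rats alone. It was at least 1.64-fold higher in silica BALF cells, with a lung change of -0.14 ± 0.08.

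Among other genes carried by the lung, Slc7a7, a transporter of cationic amino acids, had lung levels of 10.01, 10.23 and 10.53 in silica rats and 8.58, 8.93 and 9.35 in air rats, against BALF cell levels of 10.21, 10.35 and 10.50 in silica rats and 10.31, 10.57 and 10.66 in air rats. The lung groups were apart and the BALF cell groups overlapped (lung 1.36 ± 0.14, BALF cells -0.19 ± 0.07, difference 1.55 ± 0.14, adjusted p = 2.53e-05). Arg1, arginase, rose by 0.83 ± 0.10 in the lung with 0.01 ± 0.03 in BALF cells, although its BALF cell level was the higher on each separately normalized scale (12.77 to 12.92 in silica rats and 12.77 to 12.87 in air rats). Ubd, a ubiquitin-like modifier of the immune system, rose by 2.65 ± 0.52 in the lung and 0.99 ± 0.27 in BALF cells, and the differences of the 2 groups overlapped (1.08, 2.72 and 3.45 in silica rats and 0.45, 0.73 and 1.14 in air rats). Its difference of 1.65 ± 0.37 (adjusted p = 0.00769) was 0.12 without background correction (adjusted p = 0.82). Of 12 genes of class I presentation and the immunoproteasome, which include Ubd, 1 had a difference above 0 and 0 below it.

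Endothelial cells line the lung vessels. Of 5 endothelial genes tested in both tissues, 4 fell in the lung, 4 had a difference below 0 and 0 above it, and the median was -0.36. The receptor Acvrl1 fell by 0.47 ± 0.08, Ramp2, a part of the adrenomedullin receptor, by 0.50 ± 0.08 and the receptor kinase Tie1 by 0.48 ± 0.05. The tight junction gene Cldn5 had a lung change of -0.30 ± 0.10, which did not pass, and a difference of -0.30 ± 0.10 that did (adjusted p = 0.0449). That call was lost in 8 of 12 fits with 1 rat left out (adjusted p up to 0.0945) and with the replicate number as a block (adjusted p = 0.136). Without background correction the Ramp2 difference was -0.21 (adjusted p = 0.232). Of the 14 endothelial markers with a probe, 8 were detected on 0 BALF cell arrays, and the mean level of the list was 10.2 to 10.5 in silica lungs and 10.7 to 10.8 in air lungs, without overlap. Another 9 endothelial genes were tested in the lung alone, and 6 of them fell. Over all 2268 probes tested in the lung alone, 431 fell and 111 rose.

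Matrix genes could be compared for 11 of 33 listed, since 20 were tested in the lung alone, of which 11 fell and 0 rose. The counts over all 2268 probes tested in the lung alone were 431 and 111. The fibroblast and smooth muscle markers averaged 9.48 to 9.70 in silica lungs and 9.72 to 10.0 in air lungs. Of the 11, 5 had a difference below 0 and 0 above it. The basement membrane collagen Col4a1 fell by 0.50 ± 0.08 in the lung and lay at the detection limit in BALF cells. Fbln1, fibulin, had a BALF cell change of 0.38 ± 0.08, and Col15a1 fell by 0.36 ± 0.08 in the lung and rose by 0.20 ± 0.06 in BALF cells. Among 12 proteases and inhibitors tested in both tissues, 4 had a difference below 0 and 2 above it. The metalloproteinase Mmp7 was detected on 6 silica and 0 air lung arrays, was at least 1.23-fold higher in silica lungs, and rose by 1.14 ± 0.15 in BALF cells. Without background correction its difference did not pass (adjusted p = 0.157). The protease inhibitor Timp1 rose by 0.61 ± 0.07 in BALF cells with 0.15 ± 0.09 in the lung, and the membrane-bound Mmp14 by 0.39 ± 0.07 in the lung with -0.06 ± 0.05 in BALF cells.

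Epithelial genes were mostly measured in the lung. The type 2 cell mucin Muc1 rose by 0.77 ± 0.09 in the lung and lay at the detection limit in BALF cells (difference 0.78 ± 0.09). The surfactant lipid transporter Abca3 had a difference of 0.37 ± 0.08, which was 0.13 under the median shift (adjusted p = 0.83), and Lpcat1, which makes surfactant phosphatidylcholine, rose by 1.02 ± 0.13 in BALF cells with a lung change of 0.34 ± 0.12 (difference -0.68 ± 0.14). Of 6 type 2 genes tested in both, 3 had a difference above 0 and 1 below it. The type 2 marker list averaged 12.3 to 12.6 in silica lungs and 11.7 to 12.1 in air lungs, without overlap. It includes Slc26a4, which rose by 3.61 in the lung. Sftpd (0.61) and the brighter Lamp3 probe (0.42) also rose there. Sftpb (-0.06), Sftpc (0.05), Slc34a2 (-0.01) and Nkx2-1 (0.04) had lung changes that were not called. In BALF cells the airway genes Scgb1a1 and Krt19, a keratin, fell by 0.89 ± 0.19 and 1.23 ± 0.13, with lung changes of 0.09 ± 0.04 and -0.16 ± 0.08. Their differences were 0.98 ± 0.21 and 1.07 ± 0.17. Of 12 airway genes, 2 fell in the lung and 6 in BALF cells. The mean level of the airway list was 8.48 to 8.68 in silica BALF cells and 8.68 to 9.002 in air BALF cells.

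Cell division genes mark cycling cells. Of 23 tested in both, 12 rose in the lung and 17 in BALF cells, 10 had a difference below 0 and 1 above it, and the median was -0.12. Ube2c, a ubiquitin-conjugating enzyme of mitotic exit, rose by 0.10 ± 0.02 in the lung and 0.72 ± 0.06 in BALF cells, and Ccna2, cyclin A, by 0.12 ± 0.02 and 0.53 ± 0.08. Their lung levels were close to the detection limit (7.60 to 7.74 and 7.53 to 7.69 in silica rats), where a rise is compressed. Rrm2, a subunit of ribonucleotide reductase, had a difference of -0.46 ± 0.11 that was 0.10 without background correction.

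Immediate early genes, which respond within minutes to stimuli and to handling of tissue, had a median difference of -0.30 over 20 genes, with 8 below 0 and 1 above it. Ier3 and Junb rose by 0.95 ± 0.08 and 0.69 ± 0.09 in BALF cells, with lung changes of -0.04 ± 0.11 and -0.25 ± 0.22. Egr1 passed in neither tissue (-0.73 ± 0.31 in the lung and 0.25 ± 0.11 in BALF cells), while its difference did (-0.98 ± 0.26, adjusted p = 0.02). Egr2 was the exception, with a rise of 0.59 ± 0.08 in the lung and a fall of 0.24 ± 0.07 in BALF cells. Of 9 circadian clock genes, 3 had a difference above 0 and 3 below it. The repressor Nr1d1 fell by 1.45 ± 0.20 in the lung (7.65, 7.75 and 8.45 in silica rats and 8.56, 9.38 and 9.80 in air rats) and lay near the detection limit in BALF cells (difference -1.40 ± 0.19). The repressors Bhlhe41 and Bhlhe40 had differences of 0.86 ± 0.12 and 0.74 ± 0.10.

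Ribosomal and respiratory genes serve every cell. Of 39 genes of the cytosolic ribosome, 2 had a difference above 0 and 3 below it, and the median was 0.02. Of 33 genes of oxidative phosphorylation, 2 lay above 0 and 9 below it, with a median of -0.06 and no named difference over 0.36 in size. T and NK cell genes had 0 above 0 and 1 below it among 16 genes, the killing protein Prf1 (-0.34 ± 0.11, adjusted p = 0.0423). That call was lost in 9 of 12 fits with 1 rat left out (adjusted p from 0.0573 to 0.0873). The T and NK cell markers averaged 7.57 to 7.83 in silica BALF cells and 7.48 to 7.52 in air BALF cells. The T cell receptor subunit Cd3d had a difference of 0.31 ± 0.25 that did not pass. Without background correction it was -0.77 and passed (limma, adjusted p = 0.00216). For the haemoglobin genes Hbb and Hba-a2 the differences of 1.15 ± 0.73 and 1.13 ± 0.79 did not pass, and the platelet factor Pf4 fell by 1.18 ± 0.13 in BALF cells with -0.02 ± 0.12 in the lung.

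Dendritic cells carry antigen to lymph nodes. Of 7 dendritic cell genes, 3 had a difference above 0, with Cd83, a maturation marker, at 0.64 ± 0.09, and 2 below it, with the migration receptor Ccr7 at -0.58 ± 0.06. Of 9 genes of alternative macrophage activation, 2 lay above 0 and 3 below it, with the transglutaminase Tgm2 at -0.74 ± 0.11. Of 3 B and plasma cell genes and of 2 fibroblast genes, 0 were called. Of 14 mast cell and eosinophil genes with a probe, 0 were tested in both tissues.

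**Figure D3:**
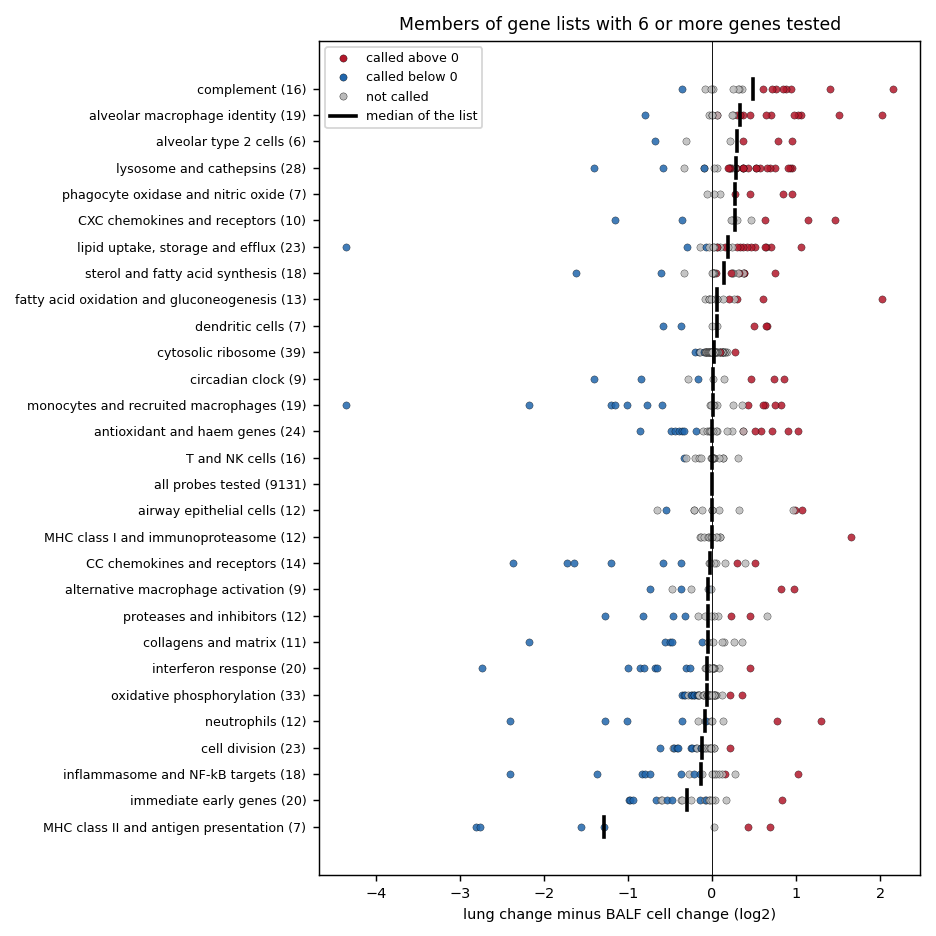
Lung log2 change minus BALF cell log2 change for each member of the gene lists with at least 6 members tested in both tissues (number tested in brackets); each point is a gene, thick bars are list medians, and all 9131 probes are shown by their median alone (0.002). The complement median lies farthest to the right (0.48) and the class II median farthest to the left (-1.29).

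Among the 215 probes called in opposite directions, 124 were higher in silica lungs and lower in silica BALF cells, and 91 the other way round. With a fold of at least 1.5 required as well in each tissue, 1 probe was left, which has no gene symbol. Plxdc2, a plexin domain membrane protein, had lung levels of 12.38, 12.47 and 12.59 in silica rats and 12.71, 12.91 and 12.98 in air rats, and BALF cell levels of 10.03, 10.19 and 10.54 in silica rats and 8.27, 8.46 and 8.68 in air rats. The groups were apart in both tissues and in opposite directions (lung -0.40 ± 0.05, BALF cells 1.78 ± 0.09, difference -2.18 ± 0.10, adjusted p = 1.98e-07). The tetraspanin Cd81 fell by 0.27 ± 0.04 in the lung and rose by 1.81 ± 0.17 in BALF cells, and Rgs3, a regulator of G protein signalling, by 0.40 ± 0.08 and 1.60 ± 0.05. Their groups were apart in both tissues as well. Gstp1, a glutathione transferase, fell by 0.33 ± 0.09 in the lung and rose by 1.18 ± 0.08 in BALF cells by the brighter of its 2 tested probes, while the difference of the other Gstp1 probe, -0.29, did not pass.

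Other large differences below 0 came with lung changes that did not pass. Pebp1, an inhibitor of Raf kinase, had a BALF cell change of 1.71 ± 0.08 and a difference of -1.75 ± 0.09. The hydrolase Nudt4 had 1.52 ± 0.06 and -1.74 ± 0.07, and the glutamate transporter Slc1a3 1.82 ± 0.13 and -1.74 ± 0.14. The differences of all silica rats lay below those of all air rats for these 3 genes.

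**Figure D4:**
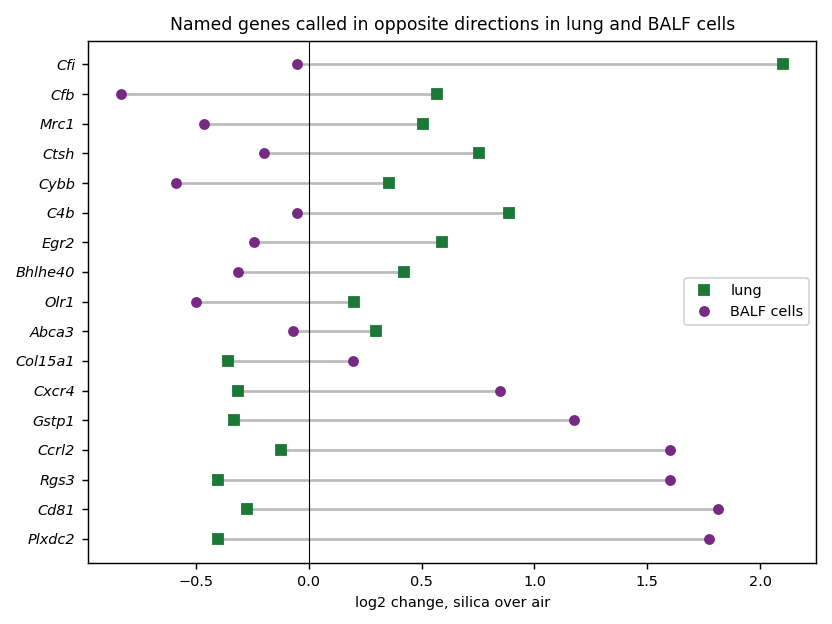
Log2 change (silica over air) in the lung (squares) and in BALF cells (circles) for 17 named genes called in opposite directions in the 2 tissues. In 10 the lung lies to the right of 0 and BALF cells to the left, with Cfi at the top (2.10 and -0.05), and in 7 the reverse holds, with Plxdc2 at the bottom (-0.40 and 1.78).

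Some of the strongest responses had no called difference. Spp1, osteopontin, had lung levels of 9.73, 11.28 and 12.53 in silica rats and 7.50, 7.54 and 7.80 in air rats, and BALF cell levels of 11.66, 13.77 and 14.51 in silica rats and 9.54, 9.89 and 10.87 in air rats. All silica rats lay above all air rats in both tissues. The lung values of the air rats stood close to the detection limit, where a change is compressed, and the BALF cell values did not. The changes were 3.62 ± 0.36 and 3.56 ± 0.45, and the difference of 0.06 had a 95% interval from -0.48 to 0.60 (adjusted p = 0.908). Within rats the lung minus BALF cell values were -2.77, -2.34 and -1.93 in silica rats and -3.33, -2.34 and -1.91 in air rats, so that the medians were equal to 2 decimals. Without background correction the difference was 0.92 (adjusted p = 0.0123).

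Mmp12, macrophage elastase, rose by 2.68 ± 0.23 in the lung and 2.03 ± 0.30 in BALF cells, with an interval of the difference from -0.01 to 1.32 (0.82 without background correction, adjusted p = 0.0216). Chi3l1, a chitinase-like protein, rose by 1.05 ± 0.10 and 1.52 ± 0.12 (interval -0.85 to -0.10, adjusted p = 0.0699), and Ltb, lymphotoxin beta, by 0.75 ± 0.21 and 1.28 ± 0.08 (interval -0.98 to -0.08, adjusted p = 0.0859). The cell cycle genes Ccnb2 and Cks2 had intervals from -0.18 to 0.23 and from -0.39 to 0.36, and the transcription factor Batf 0.02 to 0.42. Rnase3, an eosinophil-associated ribonuclease, fell in both tissues, by 0.65 ± 0.16 and 0.90 ± 0.07 (interval -0.10 to 0.60). These 8 genes were among 9 that passed in the same direction with at least 1.5-fold in each tissue and had no called difference. Without background correction the limma differences also passed for Chi3l1 (-1.19, adjusted p = 0.000123) and Ltb (-1.34, adjusted p = 1.72e-05). The same held for Batf (0.47, adjusted p = 0.00113) and Rnase3 (0.37, adjusted p = 0.0416), but not for Ccnb2 and Cks2. With the authors' processed values Ltb (-0.69, adjusted p = 0.00738) and Batf (0.25, adjusted p = 0.0168) passed. An adjusted p over 0.05 does not show that the effects were equal.

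Part of the response was measurable in 1 tissue only. Of 2268 probes tested in the lung alone, 111 were higher and 431 lower in silica rats (23.9%), and of 433 tested in BALF cells alone, 56 were higher and 48 lower (24%). Retnla, which encodes the small secreted resistin-like alpha, rose by 4.39 ± 0.29 in the lung, while in BALF cells it was detected on 5 silica and 0 air arrays and was at least 1.02-fold higher in silica rats. The anion exchanger Slc26a4, the siderophore-binding protein Lcn2 and the surfactant protein Sftpd rose by 3.61 ± 0.25, 1.51 ± 0.16 and 0.61 ± 0.10 in the lung and were detected on 0 BALF cell arrays. Falls were the more frequent call in the lung alone, and examples chosen after their values were seen are the endothelial genes Gpihbp1 (-0.86 ± 0.15), Vwf, von Willebrand factor (-0.57 ± 0.09), and Emcn, endomucin (-0.47 ± 0.07), and the collagen Col6a1 (-0.45 ± 0.05). No difference between the tissues was computed for these genes.

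Each p-value measures the spread between 6 rats per group. The deviations of lung and BALF cells from their group means correlated weakly within rats (lowest -0.175, median 0.0905 and highest 0.375 over 12 rats, across probes).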

How the data were processed

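Lung and BALF cell RNA of the same 12 rats had been hybridised to Illumina rat BeadChips, and the authors deposited a non-normalized intensity and a detection p-value for each probe and array, per the file headers. BeadStudio, lumi and limma are named, without versions, per the submitters' processing notes; array slides and days of scanning were not stated there or in the labels. The authors also deposited processed log2 values of the same arrays, which served as an alternative.

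Intensities were background-corrected and quantile-normalized within each tissue with limma 3.58.1 (neqc, offset 16) in R 4.3.3, so levels of the tissues come from separately normalized scales. Probes detected at p under 0.05 on at least 6 of 12 arrays in both tissues were kept. Each rat's lung minus BALF cell log2 value was fitted with lmFit and eBayes, and each tissue's own change likewise, with Benjamini-Hochberg adjustment. The procedure was tested on simulated data. The number of arrays limits the precision. Where 1 group had no array with a detected probe, the fold is a bound against the lowest detected signal.

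Probe symbols were updated through RefSeq's table (9918 were current, 4817 matched as synonyms, 1586 by gene ID, and 5354 kept the deposited name). Placeholder names were not treated as genes. RT1-Da stands in the files as H2-Ea, Ccdc80 as Ssg1, Rnase3 as Ear11, Ctsl as Ctsl1, C4b as C4-2, Bhlhe40 as Bhlhb2, Bhlhe41 as Bhlhb3 and Lpcat1 as Aytl2, and Cd177, Vopp1 and Cks2 under placeholders. For a gene with several probes the brightest was taken. The text names the 15 largest differences in each direction with all 6 silica rats on 1 side of the air mean, the 6 largest called in opposite directions, 8 genes called alike, 15 fixed genes and up to 4 called members per list (2 members as values where fewer than 2 were called). Some genes that this rule selects are not reported here. The genes, the 35 lists and the comparison itself were chosen with earlier results of these data known. Alternatives covered background, normalization, filters, the authors' values, the statistical model, a replicate block and each rat left out.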

Additional observations from a re-analysis of the deposited data

Results flagged for a closer look

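The silica effect differed between the tissues for 1116 probes above 0 and 937 below 0 by the test of the difference itself. Among named genes called in opposite directions, the lung minus BALF cell difference was 2.15 for Cfi, 1.40 for Cfb, 0.97 for Mrc1, 0.96 for Ctsh, 0.95 for Cybb, 0.94 for C4b, 0.83 for Egr2, 0.74 for Bhlhe40, 0.70 for Olr1 and 0.37 for Abca3. On the other side it was -2.18 for Plxdc2, -2.09 for Cd81, -2.002 for Rgs3, -1.73 for Ccrl2, -1.51 for Gstp1, -1.16 for Cxcr4 and -0.56 for Col15a1. For Cfi and C4b the BALF cell side of the contrast was a change of -0.05 close to the detection limit.

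In 13 of 276 groups of 6 rats (each gene chosen by the naming rule, in silica and in air rats) 1 rat's lung minus BALF cell value lay apart from the other 5 by Dixon's criterion, and chance gives about 1 in 20, or 13.8. Of the 9 silica groups, 5 had silica replicate 6 as that rat. Its value was -0.0586 for RT1-Db1 (others 1.24 to 1.58), 0.76 for RT1-Da (others 1.63 to 1.93), 0.80 for RT1-Ba (others 1.81 to 2.35), 2.63 for Ccl5 (others 4.35 to 5.25) and -0.96 for Rac2 (others -1.51 to -1.32). In the BALF cells of that rat RT1-Da, RT1-Db1, RT1-Ba and Ccl5 were the highest of the silica group and Ccl7 the lowest, and without it Ccl5 kept a difference of -1.29 (limma, adjusted p = 0.000533) and Ccl7 one of -2.62.

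Silica replicate 3 stood apart for Alox15 (0.0297, others -1.14 to -0.92) and Il1b (-0.96, others -0.46 to -0.20), and silica replicate 2 for Tppp3 (2.15, others 2.73 to 2.97) and Hba-a2 (6.15, others 1.66 to 3.17). Among air rats, replicate 2 stood apart for Rplp2 (0.16), replicate 6 for Slc1a3 (1.25), replicate 1 for Ccdc80 (-2.58) and replicate 4 for Slfn3 (2.83).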

How the results depend on the processing

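With arrays shifted to a common median instead of quantile-normalized, 46 differences were called above 0 and 88 below 0, with 37 higher and 40 lower in the lung and 275 higher and 207 lower in BALF cells. Opposite directions then held 2 probes, the same direction 4, the lung alone 10, BALF cells alone 95, and 30 list members were called. When the shift used the median over probes that all 24 arrays detected, the differences were 459 and 448, the lung counts 334 and 658, the BALF cell counts 549 and 673, and the classes 41, 39, 255 and 478 in the same order. The cause was not tested. With a fold of at least 1.5 required, 201 and 132 differences, 120 and 33 lung changes and 147 and 125 BALF cell changes were left, with 1, 8, 51 and 171 probes in the classes and 92 list members, fewer by construction. Without a filter on dim probes the lung-alone class held 760 probes. With detection in either tissue it held 891, and 1416 differences lay below 0, since more probes were tested.

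Same-numbered silica and air rats did not deviate together (correlations from -0.165 to 0.135). With the replicate number as a replicate block, 603 were higher and 665 lower in the lung, and opposite directions held 125, the same direction 133 and the lung alone 259. Leaving out 1 rat gave 956 to 1118 differences above 0, 780 to 916 below 0 and 152 to 221 in opposite directions. Of 121 named genes called, 112 kept the call without any 1 rat, and Slpi, S100a8, Prf1, Cldn5, Acadm, Rac2, Cox8a, Rpl23 and Rpl18 lost it in 3 to 10 of 12 fits. The common-median shift ended 81 calls. The median difference of a gene list moved by more than 1 SD over rats in 53 combinations of list and alternative. Without background correction 8 calls ended (Ubd, Ccl2, Aqp5, Ramp2, Acadm, Mmp7, Ccna2 and Rpl18). Another 6 genes gained a call there (Spp1, Mmp12, Chi3l1, Ltb, Rnase3 and Batf). The difference reversed to -0.77 for Cd3d, which then passed (limma, adjusted p = 0.00216), and to 0.10 for Rrm2, which did not (adjusted p = 0.558). The cause was not tested. Probes near the detection limit in 1 tissue understate its change.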
